A study of Mus musculus with 4 samples.

Results

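The comparison set WT periodontal ligament of 10-week-old mice against that of 4-week-old mice, as read on 1 one-colour Agilent array per age. Its members were chosen by a measurement filter only: a gene entered when its probe passed the scanner software's test of signal over background on both WT arrays, which 16102 of the 22911 genes named on the array did. The study had 4 arrays in all, 1 each for WT and Mkx-KO tissue at 10 and at 4 weeks, and the labels give no strain, sex, treatment or number of mice per preparation. Mkx encodes Mohawk, a homeobox factor of tendon and ligament, and the knockout arrays are used here only as a second pair of the same ages that shares no array with the WT pair. With 1 array on each side there was no replicate check, so differences are given as sizes without p-values. In each bulk sample, fewer cells of a type and less RNA per cell cannot be told apart.

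The periodontal ligament is the sheet of collagen fibres, fibroblasts and vessels that holds the tooth root to the alveolar bone, and its fibres end in bone on one side and in cementum on the other. At 4 weeks a mouse has weaned recently and its molars are still settling into occlusion while the jaw grows, and the incisors erupt throughout life. At 10 weeks it is a young adult. Fibroblasts of this tissue secrete type I and type III collagen with periostin, osteoblasts and cementoblasts mineralise its borders, and osteoclasts resorb the socket wall. The gingival epithelium lies next to the ligament at the neck of the tooth, and the marrow of the jaw lies behind the socket.

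A level below is the log2 processed signal of a gene's probe relative to the array's 75th percentile, and a difference is the level at 10 weeks minus that at 4 weeks, so that 1 is a doubling. Each array carried 62976 spots, with 62.3% of the non-control spots well above background at 4 weeks and 66.6% at 10 weeks in WT, and no spot was saturated. The technical error after each ± combines the scanner software's error for both spots. Its median was 0.204 and its 2.5th to 97.5th percentile range 0.204 to 0.341, and it does not cover mice. Ligament genes were read on both arrays: Postn, which encodes periostin, read 8.09 at 4 weeks and 8.01 at 10 weeks, and Col1a1 read 8.34 and 8.17. Mkx itself read 0.59 and 0.39. Xist and 4 Y-linked genes were all well above background on both WT arrays. Both arrays also held genes of bone, marrow blood cells, oral epithelium, muscle, nasal glands and olfactory neurons, whose values stand beside the results they bear on.

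Of the 16102 genes, 1428 (8.87%) differed at least 2-fold between the ages. In this count 868 genes (5.39%) were higher at 10 weeks and 560 (3.48%) were lower, so that 60.8% of the calls were higher. All 1428 differences were also over 2 technical errors. With a median error of 0.204, a 2-fold difference nearly always exceeds 2 errors, so this check adds little to the calls. Differences of at least 8-fold were found for 30 genes on the higher side and 29 on the lower side, the median difference over all genes was -0.06 and the standard deviation 0.64. Calls were denser among dim genes: 15.8% of genes with a mean level under -2 were called, against 6.81% of those with a mean level over 4. Of 260 called genes with more than 1 measured probe, 234 had all probes on the same side of 0 and 125 had all of them at least 2-fold apart. The deposited scaled values, which carry 1 factor per array, put every difference 0.32 higher, and on them 82.9% of 1853 calls were higher at 10 weeks. Background correction with normexp, which adds an offset and shrinks dim genes, left 703 calls.

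**Figure D1:**
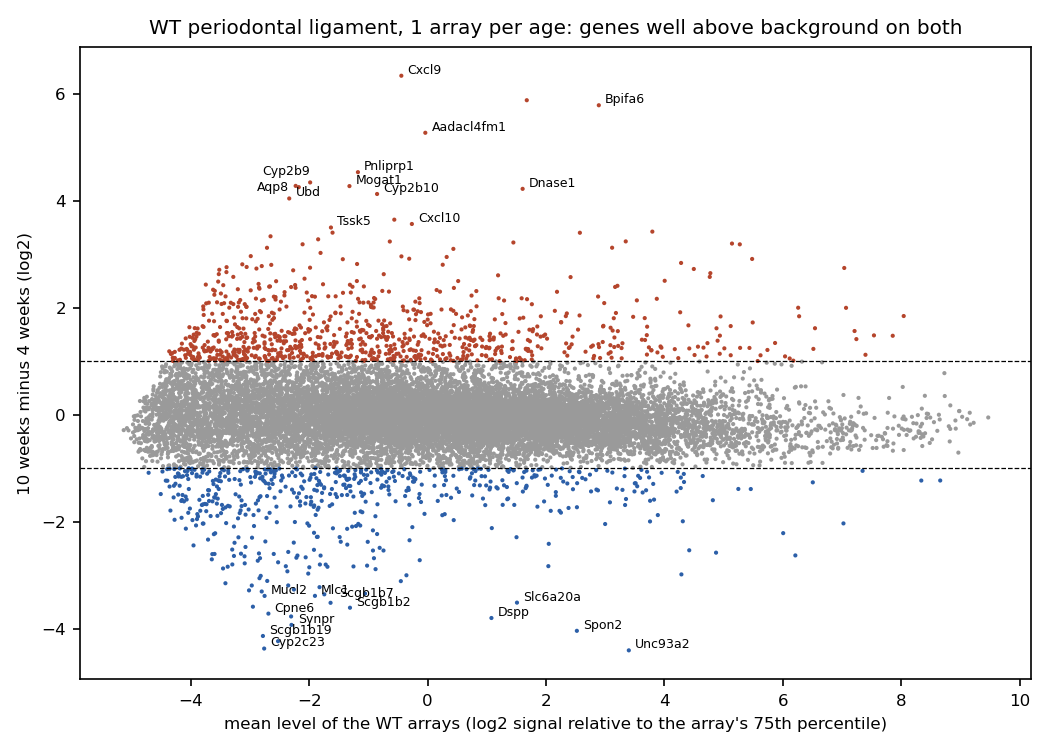
Mean level of the WT arrays (horizontal axis, log2 relative to the array's 75th percentile) against the difference between 10 and 4 weeks (vertical axis, log2) for 16102 genes, 1 point a gene, with dashed lines at 2-fold. Red points are the 868 genes higher at 10 weeks and blue points the 560 lower. The farthest genes with a full name are labelled, from Cxcl9 at 6.33 to Unc93a2 at -4.41, and unlabelled far points are olfactory receptors or genes with only a clone, locus or predicted-gene number.

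Cxcl9, a chemokine induced by interferon-gamma, lay farthest apart among the named genes, with -3.61 at 4 weeks, 2.72 at 10 weeks and a difference of 6.33 ± 0.23. Bpifa6, a member of the secreted BPI-fold family, followed with 0.00 and 5.78. The arylacetamide deacetylase-like gene Aadacl4fm1 read -2.67 and 2.59. Other genes far on the higher side were Pnliprp1 (a pancreatic lipase-related gene) at 4.53, Dnase1 (a secreted nuclease of glands) at 4.22, with 4.23 on its second probe, Aqp8 (a water channel) at 4.25 and Ubd (a ubiquitin-like modifier induced by interferon) at 4.04. Cyp2b9 and Cyp2b10, cytochrome P450 genes, differed by 4.27 and 4.12, and since they are near copies their probes may share signal. Tssk5, a kinase gene of the testis-specific family, differed by 3.50. Among genes not well above background at 4 weeks, Aadac and Elovl3 read 55.2-fold and 32.1-fold higher at 10 weeks. Both values are ratios on the probe's own dim 4-week level. Ifit1bl1 was at least 17.1-fold and the axonemal dynein gene Dnah5 at least 10.7-fold higher.

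On the lower side, Unc93a2 read 5.60 at 4 weeks and 1.19 at 10 weeks, a difference of -4.41 ± 0.20. Spon2, which encodes the matrix protein spondin 2, read 4.54 and 0.50. Dspp, the precursor of the main non-collagen proteins of dentine, read 2.98 and -0.82. Slc6a20a, an amino acid transporter, read 3.27 and -0.25. The secretoglobins Scgb1b19, Scgb1b2 and Scgb1b7 differed by -4.14, -3.61 and -3.52 and the mucin-like Mucl2 by -3.39. The secretoglobins are near-identical copies, so the split of signal between them is uncertain. Synpr, Cpne6 and Mlc1, genes of synaptic vesicles, neuronal membranes and astrocytes, differed by -3.93, -3.72 and -3.39. Cyp2c23 differed by -4.37, but its spot lay in a small bright area of the 4-week array, as did those of Tbx3os2 and Lipg, which were among the genes with the largest lower bounds. Of the genes measured, 70 had a spot in a small area of either WT array that read brighter or dimmer than the other arrays, 14 of them called.

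Genes were then described in 60 lists, of which 14 had a median difference of at least 0.5 and 6 a median of -0.5 or less. The lists with the highest medians held genes of nasal glands, interferon responses, desmosomes and the circadian clock. Those with the lowest medians held genes of neurons, enamel and dentine, B cell precursors, imprinted growth genes, osteoclasts and osteoblasts. List members were called 183 times, and 123 of these calls were past 2-fold in each of 5 alternatives. Under 2-fold were 46 after normexp, 23 on the deposited scale, 11 with quantile normalization, 10 with median centring and 4 with the mean over probes.

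**Figure D2:**
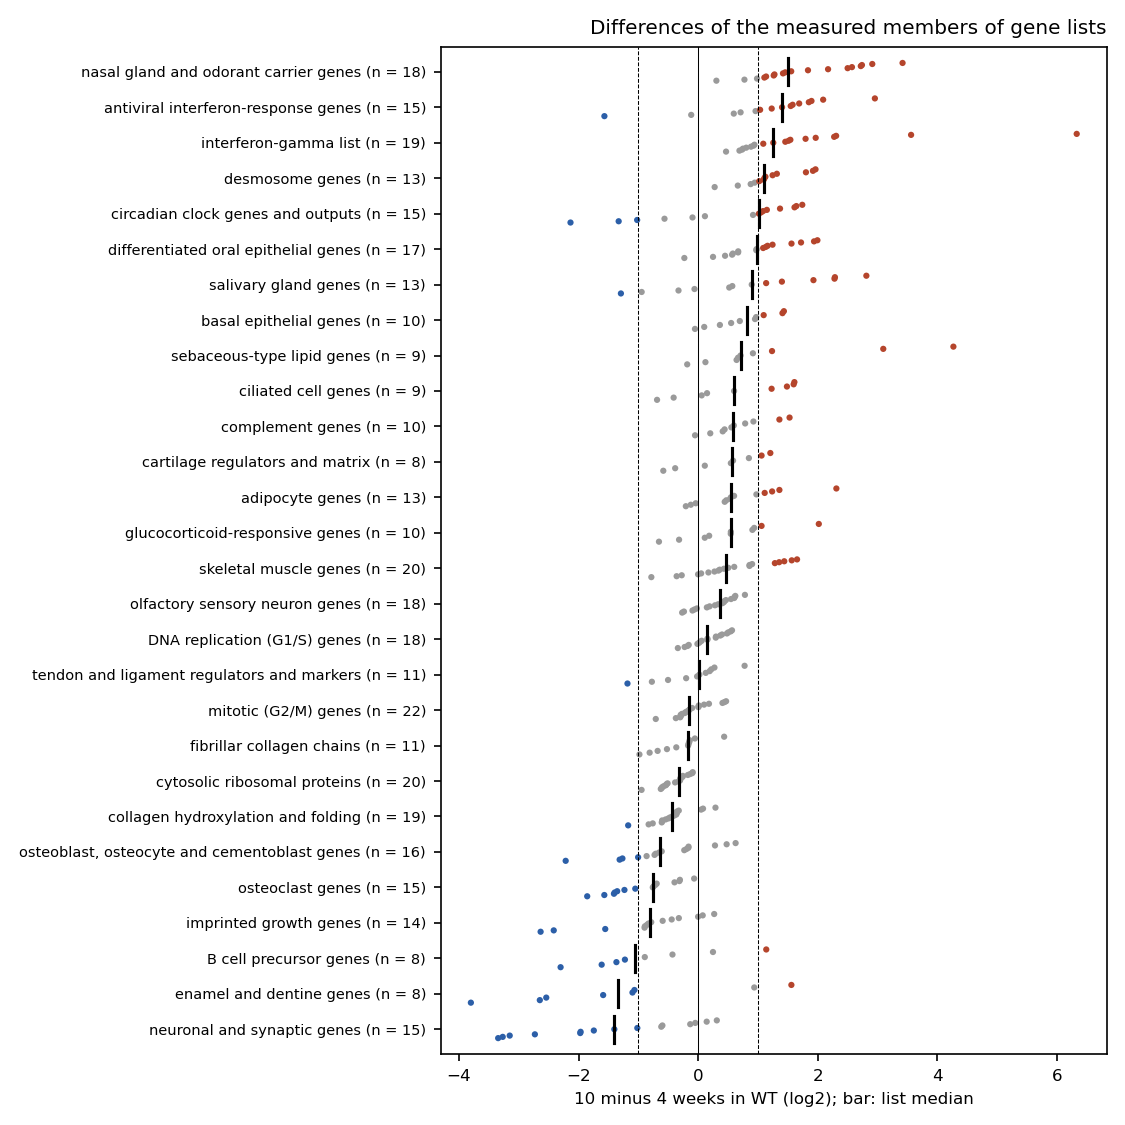
Differences between 10 and 4 weeks in WT (horizontal axis, log2) for the measured members of 28 lists, 1 point a gene, with n the number of measured members and the bar their median. Red points are at least 2-fold higher and blue points at least 2-fold lower at 10 weeks. Medians run from -1.40 for neuronal genes to 1.51 for nasal gland genes, with fibrillar collagens at -0.17 and cell cycle genes near 0.

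The chains of the ligament's main fibres read nearly alike at both ages. In the lists of genes that process and cross-link them, 2 of 12 and 1 of 19 were called lower at 10 weeks. Over all genes 3.48% were lower. Of these 3 genes only Lox was past 2-fold in each of the 5 alternatives. Col1a1 and Col1a2, the chains of type I collagen, differed by -0.17 ± 0.07 and -0.05 ± 0.20, and Col3a1 by -0.16. None of 11 fibrillar collagen genes differed 2-fold, with a median of -0.17 (0.15 on the deposited scale) and a range from -0.98 for Col11a2 to 0.44 for Col24a1. Periostin (Postn) differed by -0.08 and asporin (Aspn), a small proteoglycan abundant in this ligament, by -0.06. The acidic glycoprotein Sparc differed by -0.09, with -0.74 on its second probe. Col12a1, a fibril-associated chain of ligaments under load, read 4.85 and 4.56. Within the fibril-associated list 2 of 11 genes were lower: Col9a2 read 1.18 and -0.20 and Col14a1 -0.16 and -1.20, which was under 2-fold after normexp and on the deposited scale. The type VI chains Col6a1 and Col6a2 differed by -0.58 and -0.62.

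Enzymes of collagen maturation had list medians below that of all genes. Lox, the oxidase that starts collagen and elastin cross-links, read 4.36 at 4 weeks and 2.90 at 10 weeks, a difference of -1.46 ± 0.20 that its second probe gave as -1.49. Loxl4, a relative of Lox, read -1.03 and -2.05. In the list of procollagen cleavage and cross-linking 2 of 12 genes were lower and 0 higher, with a median of -0.33. P3h1, a prolyl hydroxylase of collagen chains, read 1.31 and 0.14 and was the called member of 19 folding genes, 16 of which were below 0, with a median of -0.43. Serpinh1, the collagen chaperone, read 6.46 and 5.85, and the lysyl hydroxylases Plod2 and Plod3 differed by -0.76 and -0.60. General chaperones of the endoplasmic reticulum had 0 of 20 genes called and a median of -0.20. On the deposited scale P3h1 and Loxl4 were under 2-fold (Loxl4 also after normexp) and the medians of these lists lay between -0.12 and 0.12.

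Elastic fibre genes had 2 of 17 members lower. Fbn2, the fibrillin of growing tissue, read 0.70 and -0.93, and its second probe gave -2.22. Elastin (Eln) read -0.22 and -1.34 and was under 2-fold after normexp and on the deposited scale. Mfap2 differed by -0.84 and Efemp1 by 0.54. Of 11 small leucine-rich proteoglycan genes 0 were called: decorin (Dcn) read 7.77 and 8.28, biglycan (Bgn) 2.29 and 1.57, and fibromodulin (Fmod) 2.53 and 2.25. Among basement membrane genes Col4a1, a chain found under epithelia and vessels, was lower at -1.13 (under 2-fold on the deposited scale), and the laminin chains Lama3 and Lamb3 differed by 0.88 and 0.98.

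Matricellular proteins, which signal from the matrix without building it, held both directions. Ccn2 read 4.07 at 4 weeks and 5.69 at 10 weeks, Ccn1 read 2.65 and 3.90, and Ccn3 read -0.64 and 0.40. These 3 were the higher genes of 19, and Spon2 was the lower. Ccn1 and Ccn2 are known as genes that mechanical stretch and TGF-beta induce in fibroblasts. Ccn3 was under 2-fold with median centring and with normexp. Among 20 proteases and inhibitors, Adamts4, an aggrecan-cleaving enzyme, read 0.43 and -2.25, and Mmp9, a gelatinase of osteoclasts and neutrophils, 3.90 and 2.26. Mmp10, Mmp3 and the inhibitor Timp3 were higher by 1.58, 1.17 and 1.01, and the collagenase Mmp13, at 5.56 and 5.20, was not called. Mmp3 was under 2-fold after normexp, and Timp3 with median centring and with the mean over probes.

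Tendon and ligament regulators were mostly alike. Scx, which encodes scleraxis, a factor of tendon progenitors and ligament fibroblasts, read 2.84 at 4 weeks and 1.66 at 10 weeks, a difference of -1.18 ± 0.20, and was the called gene of 11. Tenomodulin (Tnmd), a tendon membrane protein regulated by scleraxis, read 1.59 and 0.81. Mkx differed by -0.20 on 1 probe and 0.07 on the other. Six2, a homeobox gene of limb tendon, differed by -0.50. On the deposited scale Scx differed by -0.87.

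Both lists of bone genes held lower calls at 10 weeks and no higher ones. Each of 15 osteoclast genes was below 0 (12 of 15 on the deposited scale), with 7 of them called, 0 higher and a median of -0.76. Acp5, tartrate-resistant acid phosphatase, read 8.96 at 4 weeks and 7.72 at 10 weeks, a difference of -1.23 ± 0.20. Ocstamp and Dcstamp, membrane proteins needed for osteoclast fusion, differed by -1.86 and -1.57. The immune-type receptor Oscar, the transporter Slc9b2 and the proton pump subunit Atp6v0d2 differed by -1.41, -1.40 and -1.35. Cathepsin K (Ctsk, named after its value was seen), which degrades bone collagen, read 7.87 and 6.82. Acp5 and Ctsk were under 2-fold with quantile normalization and on the deposited scale, with 5 of the 15 genes past the threshold in each.

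Of the signals that govern osteoclasts, Il34, a ligand of the Csf1 receptor, was the called gene of 7 and read 0.75 and 2.12. Tnfsf11, which encodes RANKL, the main osteoclast-inducing ligand, differed by -0.36 and its decoy receptor Tnfrsf11b, osteoprotegerin, by 0.56. The receptor Csf1r, shared by osteoclast precursors and macrophages, differed by -0.83, with a second probe at -0.05. Macrophage genes as a list had 1 of 17 lower, 0 higher and a median of 0.22. The lower gene was Cd68 at -1.12 (-0.81 on the deposited scale), a lysosomal protein also found in osteoclasts.

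Osteoblast, osteocyte and cementoblast genes had 4 of 16 members lower, 0 higher and a median of -0.63. Ibsp, bone sialoprotein, read 7.11 at 4 weeks and 4.90 at 10 weeks, a difference of -2.22 ± 0.20. Bglap, osteocalcin, read 7.14 and 5.87. Phex, an osteocyte protein of phosphate control, read 2.69 and 1.37, and the phosphatase Phospho1 -3.53 and -4.54. Dmp1 and Sost, other osteocyte genes, differed by -0.19 and 0.48 ± 0.24, so the osteocyte genes of the list did not share a direction. Bglap and its near copy Bglap2 may share signal. Bglap, Phex and Phospho1 were under 2-fold on the deposited scale, leaving Ibsp, as was Bglap with quantile normalization and Phospho1 after normexp.

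Enamel and dentine genes had 6 of 8 lower, 1 higher and a median of -1.34. Dspp, a product of odontoblasts in the dental pulp, is given above with -3.80. Ameloblastin (Ambn), a protein of secretory enamel, read 0.35 and -2.19. Amelotin (Amtn), made by maturing ameloblasts, read -1.77 and -4.42. The enamel proteases differed too, with Klk4 at -1.10 and Mmp20 below background at 10 weeks and at least 18.0-fold lower. Klk4 was under 2-fold after normexp and on the deposited scale. Amelogenin (Amelx) read 4.62 and 3.03 and remained bright at both ages. Odam, which the epithelium attached to the tooth makes as well as ameloblasts, read 2.43 and 3.99 and was the higher gene. These cells are not part of the ligament, and their share in each preparation was not measured otherwise.

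**Figure D3:**
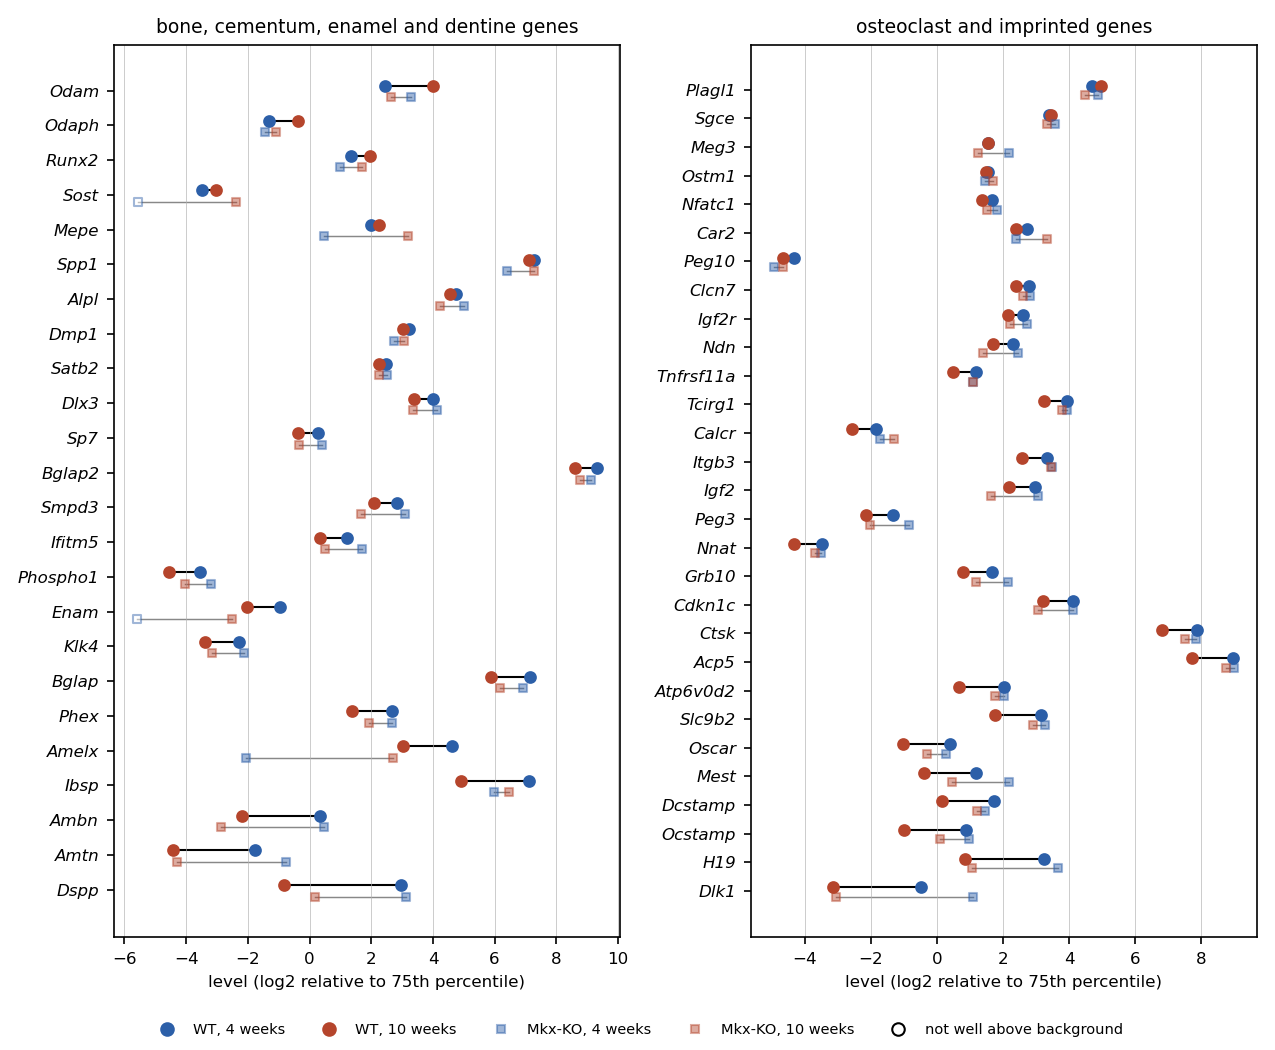
Levels (horizontal axis, log2 relative to the array's 75th percentile) of measured osteoblast, enamel and dentine genes (left) and osteoclast and imprinted genes (right), ordered by the WT difference. Circles are WT and squares Mkx-KO, blue at 4 weeks and red at 10 weeks, and open symbols are not well above background. Dspp at -3.80, Ibsp at -2.22 and Dlk1 at -2.64 lie far to the left at 10 weeks in WT, while Odam at 1.56 lies to the right.

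Cartilage genes had 2 of 8 measured members higher, Sox5 at 1.21 and the lubricating proteoglycan Prg4 at 1.06, and a median of 0.57. Sox9, the chondrocyte regulator, read -0.43 and 0.11. Prg4 was under 2-fold in 3 alternatives (normexp, quantile normalization and median centring).

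Imprinted growth genes form a network that is high in juvenile tissues and declines as a mouse reaches adult size. In WT ligament 12 of 14 were below 0, 3 were called lower, 0 higher, and the median was -0.81. The long RNA H19 read 3.25 at 4 weeks and 0.84 at 10 weeks, a difference of -2.42 ± 0.20. Dlk1, a membrane protein that restrains differentiation, read -0.49 and -3.13, with -2.09 on its second probe. Mest read 1.17 and -0.38. Igf2, the fetal growth factor encoded beside H19, read 2.96 and 2.17, and the cell cycle inhibitor Cdkn1c 4.10 and 3.21. Within the postnatal growth axis, Igf1 differed by -0.49 and 1 of 13 genes was called, Pappa at 1.14, a protease that frees insulin-like growth factors from their binding proteins, which was under 2-fold after normexp.

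Cell cycle genes did not share this pattern. Of 22 mitotic genes 0 were called, with a median of -0.15, and of 18 replication genes 0 were called, with a median of 0.16. Mki67, the proliferation marker, read 2.49 and 2.93, Ube2c 1.08 and 0.38 and Rrm2 1.82 and 2.39. All 20 ribosomal protein genes were below 0, with a median of -0.32, but on the deposited scale 10 of the 20 were below 0 and with quantile normalization 11. Broadly expressed reference genes had a median of 0.01 and respiratory chain genes one of -0.19, with 0 called in either list.

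Signalling lists held a few calls each, not far from the 8.87% of all genes that were called. Of 24 TGF-beta and BMP genes 3 were higher and 0 lower. Chrdl1, a BMP antagonist, read -1.56 and 0.09, Gdf5, a ligand of joints and tendon, -3.88 and -2.46, and Inhbb, an activin subunit, 0.55 and 1.74. Of 23 Wnt genes, the enhancer Rspo3 was higher at 1.19, and the feedback inhibitors Nkd1 and Notum were lower at -1.41 and -1.07. Axin2 (named after its value was seen), a common readout of the pathway, differed by -0.26. Of 11 hedgehog genes Hhip, a ligand-binding inhibitor, was higher at 1.08, while Gli1, a target, differed by -0.63. Of 11 retinoid genes the retinol receptor Stra6 was higher at 1.08. After normexp Gdf5, Rspo3, Hhip, Stra6 and Notum were under 2-fold. Hhip and Stra6 were also under it with quantile normalization, and Notum on the deposited scale and with the mean over probes.

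Clock genes differed between the ages on both sides of the loop that they form. The clock is a loop in which Bmal1 with Clock or Npas2 turns on the Per, Cry and Nr1d genes at E-box elements, the Per and Cry proteins block this drive, and the Nr1d proteins repress Bmal1 at ROR elements. Dbp, Tef and Hlf act on D-box elements, where Nfil3 opposes them. Levels of these genes in any tissue depend on the hour at which it is taken, which the labels do not give, so age and hour cannot be told apart. The promoter windows of 4 called genes show the elements. Each is a RefSeq window of 300 bases on GRCm38.p6, from 250 before the start to 50 after it, with matches on either strand to the E-box CACGTG, the D-box TTATGNAA and the ROR element TAGGTCA in capitals. The windows lie at chr4:151044616-151044915 (minus strand) for Per3, chr11:69098699-69098998 (plus strand) for Per1, chr6:145865371-145865670 (minus strand) for Bhlhe41 and chr7:113207261-113207560 (plus strand) for Bmal1, and each is a promoter window of its gene.
Per3: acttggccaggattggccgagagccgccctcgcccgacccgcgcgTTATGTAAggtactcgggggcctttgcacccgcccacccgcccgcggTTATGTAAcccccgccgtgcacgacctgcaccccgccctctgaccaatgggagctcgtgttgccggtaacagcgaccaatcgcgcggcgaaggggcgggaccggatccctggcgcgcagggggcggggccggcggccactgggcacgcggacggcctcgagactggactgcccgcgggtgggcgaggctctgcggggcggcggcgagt
Per1: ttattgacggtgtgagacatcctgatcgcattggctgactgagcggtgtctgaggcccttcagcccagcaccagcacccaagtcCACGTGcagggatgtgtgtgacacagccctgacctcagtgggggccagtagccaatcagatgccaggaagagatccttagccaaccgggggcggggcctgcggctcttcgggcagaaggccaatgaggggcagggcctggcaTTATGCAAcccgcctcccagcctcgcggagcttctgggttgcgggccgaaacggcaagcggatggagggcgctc
Bhlhe41: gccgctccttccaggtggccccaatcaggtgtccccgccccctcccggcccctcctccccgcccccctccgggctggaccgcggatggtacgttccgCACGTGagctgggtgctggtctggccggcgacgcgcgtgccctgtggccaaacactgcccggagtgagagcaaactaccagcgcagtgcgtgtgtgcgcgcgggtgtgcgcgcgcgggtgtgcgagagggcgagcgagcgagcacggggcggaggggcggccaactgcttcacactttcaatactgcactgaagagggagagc
Bmal1: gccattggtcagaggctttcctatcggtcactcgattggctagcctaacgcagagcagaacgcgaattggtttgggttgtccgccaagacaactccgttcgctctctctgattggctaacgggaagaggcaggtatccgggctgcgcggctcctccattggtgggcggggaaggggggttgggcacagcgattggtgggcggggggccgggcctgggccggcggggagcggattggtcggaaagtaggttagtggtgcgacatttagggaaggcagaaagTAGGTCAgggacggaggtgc
Capitals in Per3 mark 2 D-boxes, in Per1 an E-box and a D-box, in Bhlhe41 an E-box and in Bmal1 a ROR element. Per1 and Bmal1 have 2 windows each, and only windows with a match are printed.

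Of 15 measured clock genes 8 were higher and 3 lower at 10 weeks. Bmal1, the driver of the loop, read -0.29 at 4 weeks and -2.43 at 10 weeks, a difference of -2.14 ± 0.21, with all 3 probes between -2.14 and -1.60. Npas2, a partner of Bmal1, read -3.52 and -4.85, a difference of -1.33 ± 0.35, and Nfil3 (named after its value was seen) read 1.17 and 0.15. Dbp read 2.89 and 4.53, Per3 -1.56 and 0.05, and the repressors Nr1d2 and Bhlhe41 differed by 1.37 and 1.74. Per1, Per2, Tef and Hlf, named after their values were seen, were higher by 1.05, 1.02, 1.09 and 1.15. Ciart, a clock repressor below background at 4 weeks, was at least 3.39-fold higher. Clock, which barely cycles in most tissues, differed by -0.09, and Cry1 read -1.53 and -2.10. Bmal1 was the lower gene that stayed past 2-fold in each of 5 alternatives of scale, background and probe choice. After normexp 7 clock genes were higher and 1 lower: Npas2 was at -0.45, Nfil3 at -0.98 and Bhlhe41 at 0.80. Nfil3 was also under 2-fold with quantile normalization, on the deposited scale (-0.70) and with the mean over probes, and Per1 and Per2 were with median centring.

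Motif matches are a description of letters only. Among the 7 higher clock genes with a window in the table, 3 held the E-box (Per1, Tef and Bhlhe41) and 2 the D-box (Per1 and Per3), against 8.09% and 3.99% of all 27025 genes with a window. Among the 3 lower genes 0 held either, and 2 held the ROR element (Bmal1 and Nfil3), against 2.97% of all genes. Of all 14 measured clock genes with a window, called or not, 4 held the E-box (Cry1 among them), 2 the D-box and 2 the ROR element. The list holds known clock genes, so the shares over all genes do not bear on the age difference. The ROR element was added after the values were seen. Binding was not measured.

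All 11 called clock genes had the same sign in Mkx-KO, and each was farther apart there than in WT. Dbp differed by 4.43 there, Per3 by 3.66, Nr1d2 by 3.30 and Hlf by 2.93, and Bmal1 by -2.19 and Npas2 by -2.02. In that pair 9 of the 15 genes were higher and 4 lower, with a median of 1.63 against 1.02 in WT. At 4 weeks Dbp read 0.25 in Mkx-KO and 2.89 in WT, and at 10 weeks 4.68 and 4.53. Hours were not matched by any label, and the difference between the genotypes was not tested.

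Genes that respond to glucocorticoid, a hormone that also cycles daily, had 2 of 10 members higher and a median of 0.55. Zbtb16, a transcription factor induced by the hormone, read -1.43 and 0.59, and Fkbp5, a chaperone of its receptor, 1.02 and 2.08. Tsc22d3 and Sgk1 differed by 0.94 and 0.91. Immediate early genes, which rise within minutes of handling, had 0 of 16 called and a median of -0.05. Heat shock genes had Hspa1b higher at 1.26 and a median of 0.15, and genes of glycolysis and hypoxia had Hk2 higher at 1.09 (0.85 after normexp) and a median of 0.05. Fkbp5 was under 2-fold with median centring.

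**Figure D4:**
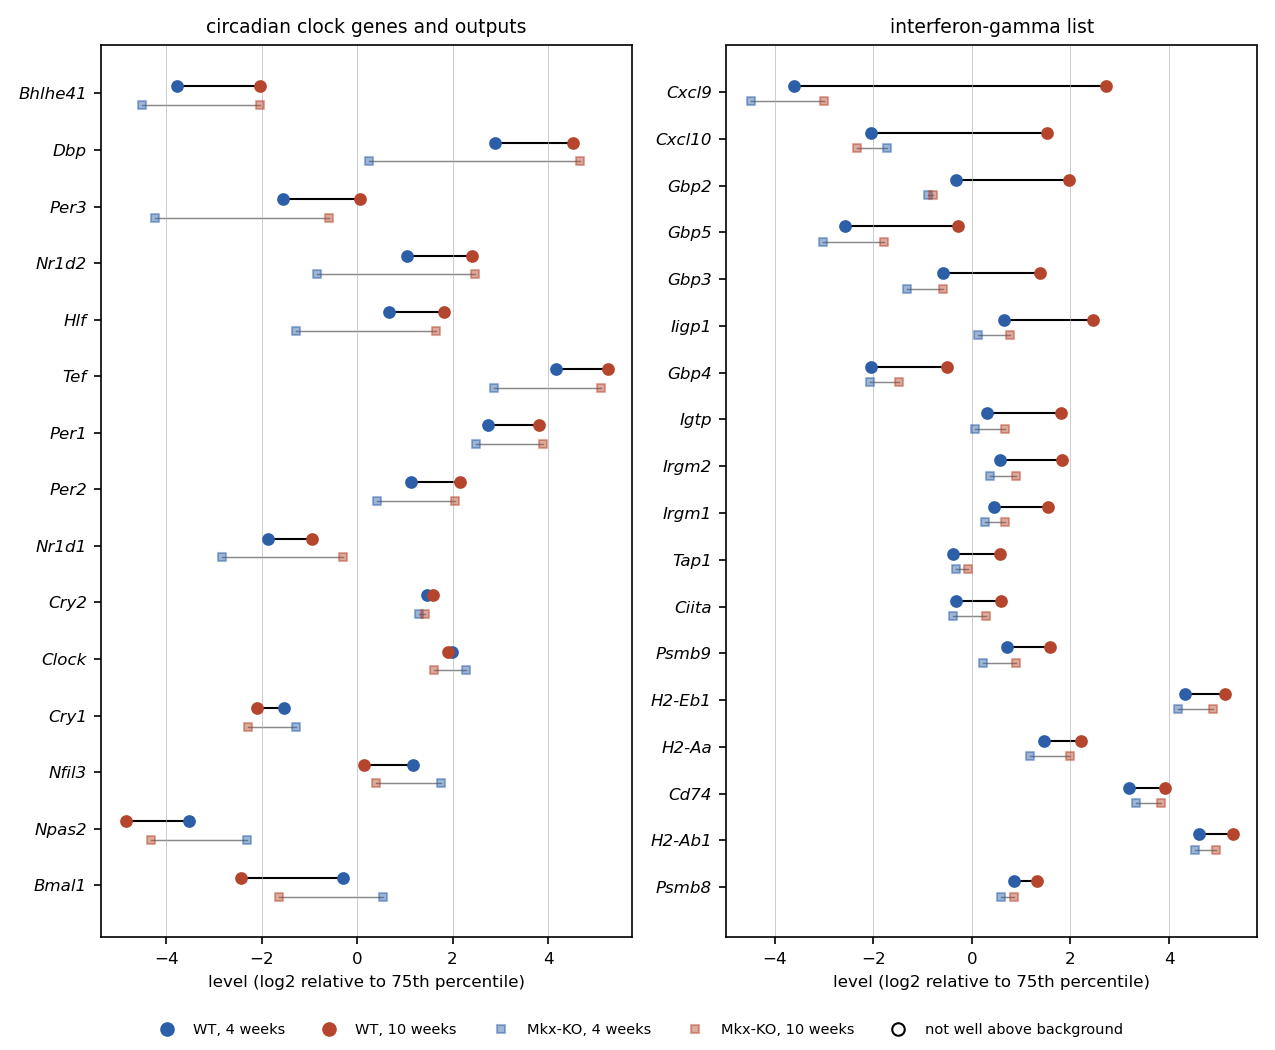
Levels (horizontal axis, log2 relative to the array's 75th percentile) of measured clock genes (left) and of 18 genes of the interferon-gamma list (right), ordered by the WT difference. Circles are WT and squares Mkx-KO, blue at 4 weeks and red at 10 weeks. The 18 interferon-gamma genes shown lie farther right at 10 weeks in WT, by 0.47 for Psmb8 to 6.33 for Cxcl9, and the clock genes lie farther right for 10 of 15 and farther left for 5.

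Of 34 interferon-induced genes in both lists that hold them, 21 were higher at 10 weeks and 1 lower. Interferons turn on antiviral effectors from the cell surface, and the common response element repeats the letters GAAA. The search used GAAANNGAA, which needs only GAA in its second part. The windows of 4 genes that led the lists hold matches to it on either strand, shown in capitals, in RefSeq windows of GRCm38.p6. They are promoter windows at chr19:34640639-34640938 (plus strand) for Ifit1, chr5:92328030-92328329 (minus strand) for Cxcl9, chr5:92348840-92349139 (minus strand) for Cxcl10 and chr3:142620413-142620712 (plus strand) for Gbp2.
Ifit1: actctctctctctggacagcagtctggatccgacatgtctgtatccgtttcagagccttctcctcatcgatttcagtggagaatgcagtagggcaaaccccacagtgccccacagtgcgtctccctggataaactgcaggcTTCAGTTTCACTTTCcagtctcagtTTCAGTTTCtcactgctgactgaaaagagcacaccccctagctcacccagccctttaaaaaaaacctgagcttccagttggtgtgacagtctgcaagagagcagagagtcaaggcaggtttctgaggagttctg
Cxcl9: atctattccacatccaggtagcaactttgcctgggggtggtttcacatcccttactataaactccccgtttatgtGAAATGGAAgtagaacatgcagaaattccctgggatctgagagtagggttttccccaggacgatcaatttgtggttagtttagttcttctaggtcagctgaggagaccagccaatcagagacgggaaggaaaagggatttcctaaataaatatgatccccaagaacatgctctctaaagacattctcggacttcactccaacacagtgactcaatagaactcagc
Cxcl10: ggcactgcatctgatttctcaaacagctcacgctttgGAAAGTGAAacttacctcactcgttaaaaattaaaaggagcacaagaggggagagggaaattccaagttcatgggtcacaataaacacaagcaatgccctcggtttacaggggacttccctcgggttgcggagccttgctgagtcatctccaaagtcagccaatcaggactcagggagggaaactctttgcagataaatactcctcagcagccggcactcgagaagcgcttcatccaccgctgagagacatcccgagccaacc
Gbp2: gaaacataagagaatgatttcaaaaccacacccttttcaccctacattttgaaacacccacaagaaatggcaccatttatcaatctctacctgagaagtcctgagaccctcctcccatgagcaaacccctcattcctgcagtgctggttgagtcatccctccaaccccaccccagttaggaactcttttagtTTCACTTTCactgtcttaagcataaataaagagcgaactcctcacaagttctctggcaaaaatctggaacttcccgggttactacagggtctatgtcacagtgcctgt
Ifit1 held 3 matches, of which 2 overlap, and the other windows 1 each. The Cxcl9 match is followed by g, so GAAA is not repeated there. Nor is it repeated in the first Ifit1 match, which is preceded by c and so followed by g on the other strand. Over both lists 12 of the 15 called-higher genes with a window held a match (80%), and the lower gene Rsad2 held it too. Of all 24 measured members with a window 15 did (62.5%), against 9.76% of all genes. The lists hold known interferon-induced genes, so the share over all genes does not bear on the age difference.

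The interferon-gamma list, with chemokines, GTPases and class II antigen presentation, had 11 of 19 genes higher and 0 lower, each of the 19 above 0, with a median of 1.26. Cxcl10, a T cell attractant like Cxcl9, read -2.05 at 4 weeks and 1.51 at 10 weeks, a difference of 3.56 ± 0.21. The guanylate-binding proteins Gbp2, Gbp5 and Gbp3 differed by 2.31, 2.28 and 1.97. Class II genes differed less: H2-Ab1, H2-Aa, H2-Eb1 and Cd74, named after their values were seen, differed by 0.69 to 0.81, and none was 2-fold higher.

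Of 15 antiviral genes 10 were higher and 1 lower, with a median of 1.40. Ifit1, which blocks translation of viral RNA, read -1.92 and 1.04. Ifit3 and Ifit2, of the same family, differed by 1.85 and 1.58, and Usp18, the feedback inhibitor of the interferon receptor, by 2.09. Zbp1, a sensor of viral nucleic acid, read -1.62 and 0.07. Rsad2 (named after its value was seen), which encodes viperin, read 2.14 and 0.58 and went the other way at -1.57, and Isg15 read 3.47 and 4.06. In Mkx-KO the same lists had 4 of 15 and 2 of 19 genes higher, with medians of 0.68 and 0.59, and Cxcl10 differed by -0.61. T cell and natural killer genes, a source of interferon-gamma, had 1 of 14 higher (Cd3g at 1.81 ± 0.29), 1 lower (Klrb1c) and a median of 0.34, and their part in the result was not tested. After normexp 0 of the 14 were called and the median was 0.07, with Cd3g at 0.61.

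Inflammatory genes had 4 of 14 higher and 0 lower. Saa3, an acute phase protein of epithelia and macrophages, read -3.49 and -0.21, a difference of 3.28 ± 0.24. The neutrophil attractant Cxcl5 differed by 2.08, and the monocyte attractants Ccl8 and Ccl2 by 1.40 and 1.21. Tnf (named after its value was seen) and Il1b did not reach 2-fold, at 0.23 and -0.45. Il6 was below background at 4 weeks and has only a bound. Ccl2 was under 2-fold after normexp. Complement genes had Cfb at 1.53 and Cfd at 1.36 as the higher members of 10, with C3 at 0.93 and a median of 0.58. Cfd was under 2-fold after normexp.

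Blood cell lists differed in direction. B cell precursor genes had 4 of 8 measured members lower, 1 higher and a median of -1.06. Igll1 and Vpreb1, which form the surrogate light chain of pre-B cells, differed by -2.30 ± 0.25 and -1.61, and Dntt, the enzyme that adds bases to joining gene segments, by -1.37. Il7r, which T cells also carry, was higher at 1.14, and Rag1 and Rag2 were below background on all 4 arrays. Mature B cell genes had a median of -0.46, with Mzb1 at -1.14 and the antibody joining chain Jchain at 2.10. After normexp Il7r and Mzb1 were under 2-fold, Mzb1 also on the deposited scale.

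Erythroid genes gave opposite signs within the list. Hbb-b1, an adult beta globin, read 7.53 at 4 weeks and 4.90 at 10 weeks, and Alas2, the first enzyme of heme synthesis in red cells, 6.16 and 3.58. Hbb-bt, another beta globin, differed by -1.23 (under 2-fold on the deposited scale), but Hba-a1 (named after its value was seen) by -0.15, with -1.50 on its second probe, and the receptor Epor by 0.74, and the median of 15 genes was 0.01. The beta globin genes are near copies, so probe signal may be shared. Primary neutrophil granule genes had Fcnb higher at 1.05 and Mpo, myeloperoxidase, at 0.63, with a median of 0.36, and later granule genes a median of 0.20. Fcnb was under 2-fold after normexp (0.36), with quantile normalization and with median centring. Of mast cell proteases Tpsb2 was higher at 1.17, and Mcpt4 was at -1.01 but under 2-fold after normexp, with quantile normalization and on the deposited scale.

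Each of 3 lists of epithelial genes held higher calls at 10 weeks and no lower ones, 20 of 40 genes in all. Desmosomes, the junctions that rivet keratinocytes together, had 9 of 13 genes higher, 0 lower and a median of 1.11. Dsc1 and Dsg3, their cadherins, differed by 1.96 and 1.92, and the plaque proteins Pkp1 and desmoplakin (Dsp) by 1.80 and 1.32. Differentiated epithelial genes had 8 of 17 higher, 0 lower and a median of 0.98. Krt76, a keratin of hard palate and gingiva, read 1.18 and 3.12, Krt6b and Krt16, keratins of fast-renewing epithelium, 6.07 and 8.07 and 4.63 and 6.35. Basal genes had 3 of 10 higher, with Krt14 at 1.41 and Krt5 at 0.97. The summed linear levels of the 3 lists, relative to the array's 75th percentile, were 51.6 and 128 for desmosomes, 366 and 963 for differentiated and 223 and 474 for basal genes at 4 and 10 weeks.

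In Mkx-KO the epithelial lists did not follow: desmosome genes had 1 of 13 higher and a median of 0.19, basal genes a median of -0.08, and differentiated genes 3 of 17 lower with a median of -0.70. The part of gingiva in the WT differences was not tested. Sebaceous-type lipid genes had 3 of 9 measured members higher. Mogat1, a monoacylglycerol acyltransferase, read -3.46 and 0.81, Scd3, a desaturase of sebaceous glands, -1.11 and 1.98 with probes from 2.09 to 5.69, and Scd1 differed by 1.24. The elongase Elovl3 is given above as a bound.

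Genes of nasal glands and of odorant-carrying secretions were read on both WT arrays. Their list had 15 of 18 genes higher at 10 weeks, 0 lower and a median of 1.51, and its summed linear level was 522 at 4 weeks and 1414 at 10 weeks. Obp2a, an odorant-binding protein, read 2.09 and 5.51, Mup4, a major urinary protein of nasal and lachrymal glands, 5.67 and 8.41, and the secretoglobin Scgb1c1 3.14 and 5.86. Bpifb3 and Lcn11 differed by 2.50 and 2.57. Several belong to families of near copies. Olfactory sensory neuron genes were also well above background, 18 of 18 on each WT array, but 0 were called, with a median of 0.37. Omp (named after its value was seen), the marker protein of mature olfactory neurons, read 4.38 and 4.72. On the 4-week Mkx-KO array 9 of these 18 genes and 9 of the 18 gland genes were not above background, and the summed level of the gland list was 1.62 there.

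Ciliated cell genes had 4 of 9 measured members higher, among them Foxj1, the regulator of motile cilia, at 1.61, Cfap43 at 1.60 and Tekt1 at 1.49. Salivary gland genes had 6 of 13 higher and 1 lower. Bhlha15, a regulator of secretory cells, read -2.60 and 0.21, the kallikrein Klk1 -3.56 and -1.27, and the water channel Aqp5 0.09 and 1.49. After normexp 1 of the 9 ciliated and 5 of the 13 salivary genes were higher.

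Neuronal and synaptic genes had the lowest median of the 60 lists, although that of enamel and dentine genes was lower after normexp (-1.01 against -0.89), over genes read on 4 arrays (-1.59 against -1.02) and with members at their bounds (-1.59 against -1.21). They had 9 of 15 lower, 0 higher and a median of -1.40. Slc32a1, the vesicular transporter of GABA, read 0.61 at 4 weeks and -2.73 at 10 weeks, a difference of -3.35 ± 0.21. Gad1 and Gad2, the enzymes that make GABA, differed by -3.27 and -3.15. Rbfox3, which encodes the neuronal nuclear antigen NeuN, read -1.50 and -4.24, and the synaptic vesicle protein Syt1 1.43 and -0.55. Snap25 and Stmn2, named after their values were seen, which sensory neurons and nerves also express, differed by 0.31 and 0.14. Slc17a7, the glutamate transporter of the cortex, was above background at 4 weeks only. In Mkx-KO Slc32a1 and Gad1 went the other way, at 3.35 and 3.25. After normexp 6 of the 15 genes were lower in WT.

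Lists of other jaw tissues varied in their share of calls, where 5.39% of all genes were higher and 3.48% lower. Skeletal muscle genes had 5 of 20 higher, 0 lower and a median of 0.47: Myh4, a fast myosin, read -0.11 and 1.55, with 0.43 on its second probe, and Tcap 2.43 and 3.88. Myh8, the perinatal myosin, read 3.18 and 4.38. Adipocyte genes had 4 of 13 higher and a median of 0.55, with Pck1 at 2.31 ± 0.33 and Cidea at 1.24, while Plin1 was below background on both WT arrays. After normexp 1 of the 13 was higher. Endothelial genes had 0 of 17 called and a median of -0.15, smooth muscle and pericyte genes 0 of 11 and -0.03, and Schwann cell genes 2 of 12 lower, Gfap at -1.41 and Mag at -1.01. After normexp both were under 2-fold, as was Mag on the deposited scale.

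The Mkx-KO pair measured the same ages on arrays the WT comparison did not use. Over the 15504 genes well above background on all 4 arrays, 727 were higher and 503 lower in WT. Of the 727 higher genes, 362 (49.8%) were also at least 2-fold higher in Mkx-KO, where 6.7% of all genes were, and these made up 34.8% of the 1039 genes higher in Mkx-KO. Of the 503 lower genes, 173 (34.4%) were also lower in Mkx-KO, where 3.39% of all genes were, and these made up 32.9% of the 526 lower there. Directions were shared by 88.2% of the higher genes, against 40.8% of all genes above 0 in Mkx-KO, and by 73.2% of the lower genes, against 59.2% below 0. Genes called in opposite directions numbered 3 among the higher and 77 among the lower.

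Several matrix and growth genes called in WT were called in the same direction in Mkx-KO. Spon2 differed by -3.61 in Mkx-KO, Adamts4 by -2.98, Lox by -1.38, H19 by -2.60, Dlk1 by -4.13, Dspp by -2.96, Ccn2 by 2.98 and Zbtb16 by 2.28. Bone genes were mixed: osteoclast genes had 0 of 15 called in Mkx-KO with a median of -0.24, and Acp5 differed by -0.24. Of 15 osteoblast-list genes read on all 4 arrays, 2 were lower and 1 higher in Mkx-KO. Their median was -0.73 there and -0.65 in WT, although Ibsp differed by 0.49 in Mkx-KO. Later neutrophil genes had 1 of 15 higher in WT and 11 of 15 in Mkx-KO, and skeletal muscle genes had 5 of 20 higher in WT and 16 of the 19 read on all 4 arrays in Mkx-KO. None of these contrasts between the pairs was tested, since each group has 1 array.

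**Figure D5:**
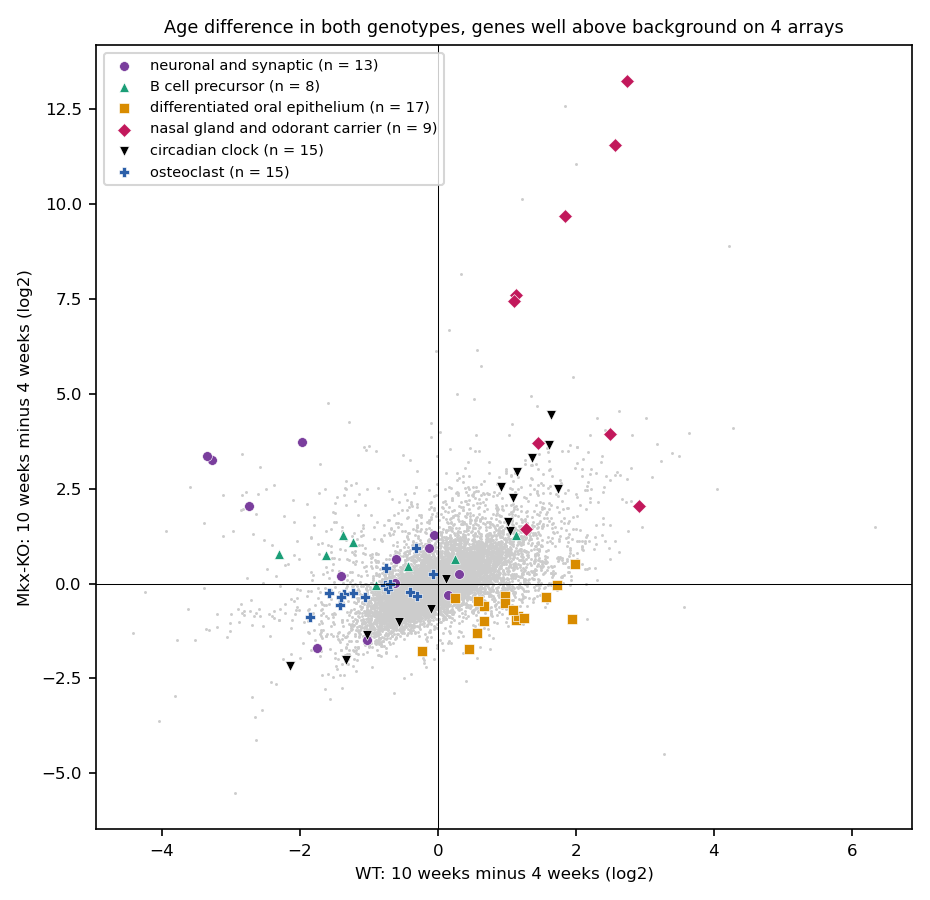
Difference between 10 and 4 weeks in WT (horizontal axis, log2) against that in Mkx-KO (vertical axis, log2) for 15504 genes (grey), with 6 lists in colour and n the members read on 4 arrays. Clock genes lie along the diagonal with larger values in Mkx-KO, nasal gland genes reach 13.2 in Mkx-KO, differentiated epithelial genes lie mostly right of and below 0, and 4 neuronal genes lie far to the upper left.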

How the data were processed

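Total RNA of the 4 preparations was extracted with ISOGEN and labelled with Cy3 by low input amplification, per the labels' protocols. The arrays shared 1 slide, per the file headers. The deposited scan data hold spot intensity on a linear scale from Agilent Feature Extraction 11.5.1.1 (per the submitters' processing notes), with background subtraction and spatial detrending already applied. The deposited series table also holds intensity, in which each WT column is the processed signal multiplied by a constant (1.64 at 4 weeks, 1.81 at 10 weeks) whose origin the labels do not give.

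Non-control signals were log2 transformed and centred on each array's 75th percentile. Outlier spots were left out, spots of a probe averaged, and probes named through RefSeq accessions (32994 of 56605, 58.3%), with no gene positions because the array design is on mm9 and the RefSeq table on GRCm38.p6. Where a gene had several probes, the brightest on average was used. Calls needed a probe well above background on both WT arrays and a 2-fold difference. A bound uses, on the dim array, the higher of the probe's own level and the lowest level well above background. The members' lists and the alternatives were chosen with earlier results of these data known. The rule for named genes took 22 core genes, the 12 farthest apart and the 4 largest bounds in each direction, and up to 6 members of each list; others are marked as named after their values were seen, and a few genes are not reported here. No test was run, since each group has 1 array, and the number of arrays limits the precision.

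Alternatives were normexp (on the median spot signal), quantile normalization, median centring, the deposited scaled values, the mean over probes, other filters and thresholds, and windows of 11 by 11 spots left out. Windows of 5 by 5 spots were added after seeing the data. The steps were tested on simulated data with known fold changes. Normalization alternatives ran in limma 3.58.1 under R 4.3.3, and figures were drawn with matplotlib 3.10.9. The remaining steps used pandas 2.3.3 and numpy 2.4.6 in Python 3.11.15.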

Additional observations from a re-analysis of the deposited data

Results flagged for a closer look

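The following results stood out because the WT pair and the Mkx-KO pair moved in opposite directions between 4 and 10 weeks. The difference between the genotypes was not tested, since each group has 1 array, and no cause was tested.

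Of neural genes, Synpr differed by -3.93 in WT and 1.38 in Mkx-KO, Mlc1 by -3.39 and 1.61, Slc32a1 by -3.35 and 3.35, Gad1 by -3.27 and 3.25, Rbfox3 by -2.73 and 2.03, and Syt1 by -1.97 and 3.74. Over the 13 neuronal genes read on all 4 arrays the medians were -1.02 and 0.66. On the 4-week arrays Slc32a1 read 0.61 in WT and -3.94 in Mkx-KO, and on the 10-week arrays -2.73 and -0.59.

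Of lymphoid genes, Dntt differed by -1.37 and 1.27, Vpreb2 by -1.23 and 1.10, Mzb1 by -1.14 and 1.01, and Klrb1c by -1.63 and 2.48, although the second Klrb1c probe gave -0.14 in WT. The medians of the 8 B cell precursor genes were -1.06 and 0.77.

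The enamel protein gene Amelx differed by -1.59 and 4.76, and the acute phase gene Saa3 by 3.28 and -4.49. The medians of 17 differentiated oral epithelial genes were 0.98 in WT and -0.70 in Mkx-KO.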

How the results depend on the processing

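With 1 array per group no replicate could be left out. No paired analysis was possible because each group has 1 array, so the groups share fewer than 2 replicate numbers. After normexp 703 genes were called (432 higher, 271 lower), on the deposited scaled values 1536 were higher and 317 lower, and without a background filter 2930 were called (1707 higher, 1223 lower). A 1.5-fold threshold gave 3661 (1823 and 1838) and a 3-fold one 499 (292 and 207). Lists with a median of at least 0.5 numbered 22 on the deposited scale, and those at -0.5 or less 3. Genes called higher in both genotypes numbered 154 after normexp, 679 on the deposited scale and 933 without a filter, and those called lower 80, 69 and 268. Of 165 named genes that were called, 37 were under 2-fold after normexp, 19 on the deposited scale, 7 with quantile normalization, 6 with median centring and 3 with the mean over probes, and none changed sign under these 5. Quantile normalization gave 1476 calls, median centring 1418, windows of 11 by 11 spots 1426 and those of 5 by 5 spots 1414. Signals near background limit the dim genes, and mice were not replicated.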

Other observations

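Retinoic acid genes, which pattern craniofacial tissue, had 1 of 11 measured members higher at 10 weeks and 0 lower. Over all genes 8.87% were called. The list median was 0.01 (-0.05 with median centring). Crabp1, a binding protein of retinoic acid, read 5.66 at 4 weeks and 4.96 at 10 weeks, the plasma carrier Rbp4 0.64 and -0.23, and the retinol dehydrogenase Rdh10 0.96 and 1.86. The called gene was Stra6, the receptor of the plasma carrier, with -2.21 and -1.13. Pthlh, the parathyroid hormone-related ligand needed for tooth eruption, read 2.12 and 1.81, and its receptor Pth1r 4.01 and 3.63.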
